A study of Mus musculus with 12 samples.

Results

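The genes described here encode the contractile machinery of skeletal muscle and the enzymes that fuel it, read in brown adipose tissue of mice. They are 42 genes chosen by name, and 38 of them had a probe on the Illumina array, while no probe carried the symbol of Myh2, Neb, Smpx or Cacna1s. Where a gene had several probes, the probe with the highest mean signal stood for it. The platform annotation gave these 38 genes the same symbols as RefSeq. In all, 8035 genes of the array passed the filter for testing, 24 of these 42 among them.

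The tissue came from 2 groups of 6 samples, all aged 3 months and on the C57Bl/6N background. The first group was wild type (WT). The second, SIRT1tg, carried the genotype SIRT1Tg/Tg, a transgene for the NAD+-dependent protein deacetylase SIRT1. The promoter that drives the transgene and the brown fat depot are not given in the sources used here, and neither is whether each sample was 1 mouse, so a p-value reflects only how far these samples spread, and that spread may be technical.

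Skeletal muscle contracts when calcium released from the sarcoplasmic reticulum binds troponin on the thin actin filament and lets the myosin heads of the thick filament pull. Fast and slow fibres build this apparatus from different genes for troponin, myosin, the calcium pump and the calcium store, and the heart shares many genes with slow fibres. Brown adipocytes, which burn fat to make heat, arise in the embryo from precursors related to those of skeletal muscle, and depots of brown fat lie beside muscle.

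Signals are given as normalised log2 intensities. Probes not detected above the negative control beads had a median signal of 4.26, so a value near this is background. Across arrays, 11221 to 12108 of 25697 probes were detected, and median signals before normalisation lay between 98.95 and 108.6. Sirt1 averaged 6.88 in WT and 8.26 in SIRT1tg, a difference of 1.37 ± 0.14 (SE, n = 6 per group, limma, adjusted p = 0.00049). The brown fat genes Ucp1, the uncoupling protein of heat production, and Cidea, a lipid droplet protein, were detected on all 12 arrays, at 12.80 to 13.79 and 13.62 to 13.83. The non-normalised columns name the group and a number of unstated meaning, and these numbers fall into a low and a high range with 3 arrays of each group. Within each group the arrays are called 1 to 6 here in the order of that number, so that arrays 1 to 3 are of the low range and 4 to 6 of the high range. No label says whether this order is that of the replicate numbers in the processed table, so arrays of the 2 tables are named apart.

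The promoters of 4 of the genes are shown, since these genes bracket the patterns described: Acta1, the skeletal actin, had the largest range over arrays of any gene tested, Tnnc2 and Tnnc1 are the fast and the slow form of one protein, and Myl1 was bright on every array. Each line holds the 250 bases before the start of the gene from RefSeq on the build GRCm38.p6, 5′ to 3′ on the gene's strand. The Acta1 window lies on the minus strand at chr8:123894776-123895025, that of Tnnc2 on the minus strand at chr2:164779735-164779984, that of Tnnc1 on the plus strand at chr14:31208062-31208311 and that of Myl1 on the minus strand at chr1:66945057-66945306. Capitals mark matches to motifs bound by muscle regulators, searched on both strands: the E-box (CANNTG, bound by myogenic basic helix-loop-helix factors), the MCAT element (CATTCC, bound by TEAD factors), the CArG box (bound by serum response factor) and the MEF2 site.
Acta1: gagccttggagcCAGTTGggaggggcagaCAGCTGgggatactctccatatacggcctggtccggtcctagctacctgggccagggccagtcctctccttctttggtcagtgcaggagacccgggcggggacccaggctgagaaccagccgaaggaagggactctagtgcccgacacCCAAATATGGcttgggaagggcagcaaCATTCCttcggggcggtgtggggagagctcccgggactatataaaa
Tnnc2: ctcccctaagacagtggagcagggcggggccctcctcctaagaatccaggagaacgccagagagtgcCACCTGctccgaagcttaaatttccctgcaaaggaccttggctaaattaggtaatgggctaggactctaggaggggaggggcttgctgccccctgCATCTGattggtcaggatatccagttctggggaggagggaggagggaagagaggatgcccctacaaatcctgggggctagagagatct
Tnnc1: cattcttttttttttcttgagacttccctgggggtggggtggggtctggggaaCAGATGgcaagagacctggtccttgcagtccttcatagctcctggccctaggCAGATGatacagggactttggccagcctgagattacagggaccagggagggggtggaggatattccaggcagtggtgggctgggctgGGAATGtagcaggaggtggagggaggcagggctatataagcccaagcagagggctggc
Myl1: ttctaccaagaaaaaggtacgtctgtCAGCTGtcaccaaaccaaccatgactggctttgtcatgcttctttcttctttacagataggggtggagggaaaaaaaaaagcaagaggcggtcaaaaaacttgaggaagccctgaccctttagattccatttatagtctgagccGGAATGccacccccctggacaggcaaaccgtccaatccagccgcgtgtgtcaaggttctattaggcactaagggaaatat
The window of Acta1 held 2 E-boxes, 1 MCAT element and 1 CArG box. Tnnc2 held 2 E-boxes and none of the other 3 motifs. Tnnc1 held 2 E-boxes and 1 MCAT element, and Myl1 held 1 E-box and 1 MCAT element. The table of promoters covered 33 of the 42 genes. An E-box lay in 26 of these 33 (78.8%, against 66.2% of all 32851 promoter windows), an MCAT element in 10 (30.3% against 12.6%), a CArG box in 5 (15.2% against 1.47%) and a MEF2 site in 7 (21.2% against 2.92%). Motifs that overlapped were counted each, and a match is a run of letters, not a site shown to be bound.

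The muscle genes varied between arrays far more than other genes, and most of them did so together. Over the 24 tested muscle genes the range, the highest minus the lowest log2 signal over the 12 arrays, had a median of 4.37, against 0.73 over all 8035 genes tested. With no background correction the members' median was 2.45, and over the 6 genes with a probe detected on all 12 arrays (Tpm2 through a further probe) it was 2.76. A range above 3 was seen for 19 of the 24, against 48 genes or 0.597% of all tested. Of the 30 largest ranges, 16 belonged to these genes and 3 to other muscle genes (Cox6a2, Rpl3l and Eef1a2). The filter asked for a detection p under 0.05 on at least 6 arrays and so left out 14 members with a probe, of which 9 were detected on 1 to 5 arrays and 5 on none (Casq1, Myh7, Actc1, Cacng1 and Trdn). In total RNA of a tissue, more muscle cells and more of these transcripts per cell cannot be told apart.

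The arrays themselves fell into a graded order. Of the 38 members with a probe, 32 were detected on WT 5 and on SIRT1tg 5, 29 on WT 2 and on WT 4, 27 on WT 1 and 24 on SIRT1tg 6. On the other 6 arrays, which were WT 3, WT 6 and SIRT1tg 1 to 4, between 6 and 10 were detected. The total number of detected probes was highest on WT 4 (12108), SIRT1tg 5 (11983) and WT 1 (11974) and lowest on SIRT1tg 4 (11221), which had 10 members detected. It did not follow the order throughout, since SIRT1tg 6, with 24 members detected, had 11487, and SIRT1tg 2, with 7, had 11828. The part of this total in the muscle signals was not tested. For 20 of the 24 tested genes the 6 highest arrays were the same 6. This count is not independent of the filter, since 12 of the 24 were detected on exactly 6 arrays and passed only through these. SIRT1tg 5 was the highest array for 18 of the 24 and WT 5 for the other 6.

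**Figure D1:**
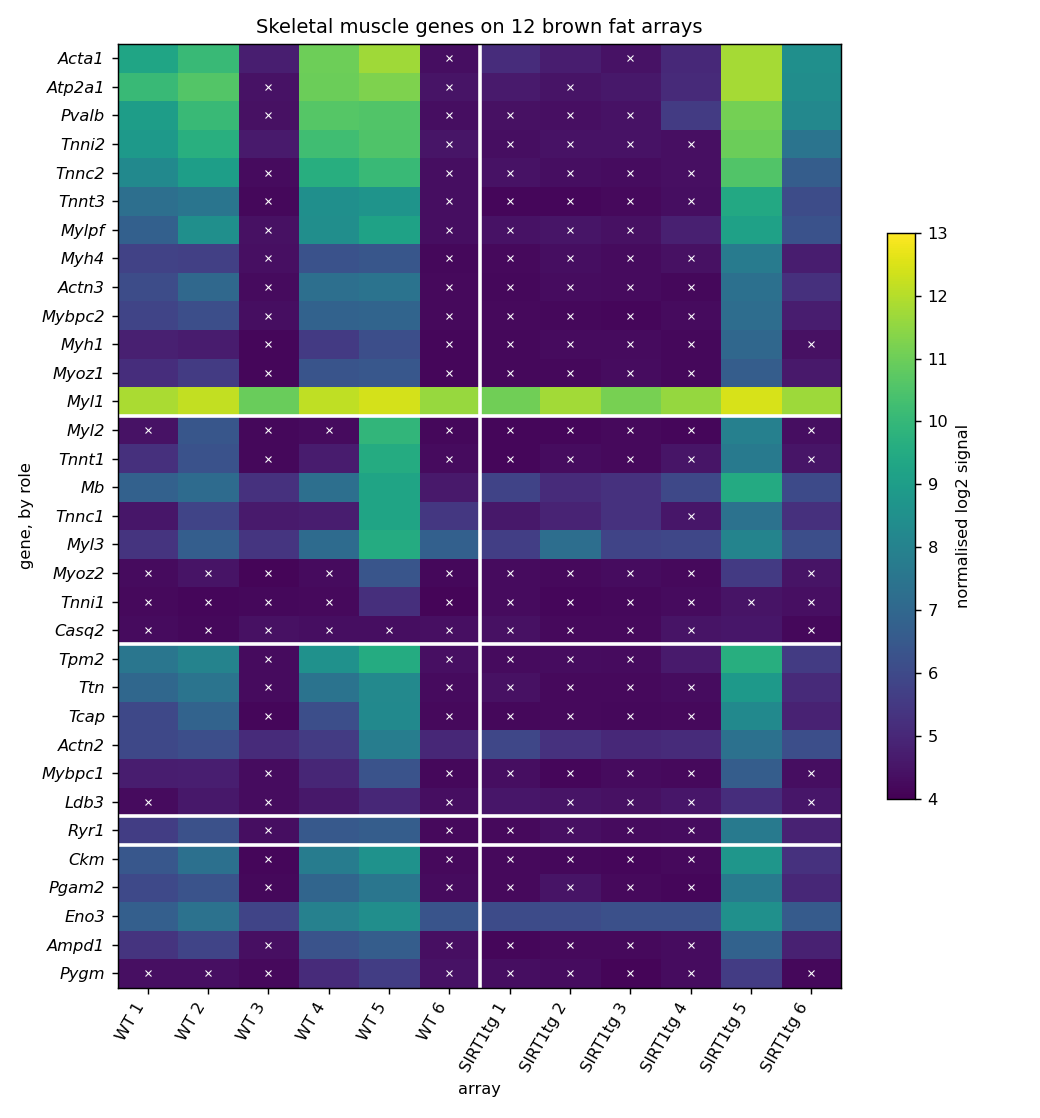
Signals of the muscle genes on each array. Rows are the 33 genes detected on at least 1 array, grouped by role, columns are the 6 WT and 6 SIRT1tg arrays, the colour gives the normalised log2 signal and a cross marks a probe not detected. WT 1, 2, 4 and 5 and SIRT1tg 5 and 6 stand out over most fast genes, and Myl1 is bright in all 12 columns.

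Among the fast-fibre genes, Acta1, the actin of the skeletal thin filament, read 9.29, 10.11, 4.74, 11.00, 11.71 and 4.32 on WT 1 to 6. On SIRT1tg 1 to 6 it read 5.14, 4.73, 4.44, 5.02, 11.79 and 8.49. Both groups thus held arrays near background and arrays that were bright, and the groups overlapped over nearly the whole range of 7.47. Before normalisation its signal ran from 96.2 to 3775, a ratio of 39.2.

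Atp2a1, the calcium pump SERCA1 of fast fibres, followed the same order of arrays. It read 10.09, 10.59, 4.44, 10.99, 11.27 and 4.48 in WT and 4.65, 4.47, 4.59, 5.06, 11.78 and 8.41 in SIRT1tg, a range of 7.35. Pvalb, the calcium buffer parvalbumin, read 9.0, 10.10, 4.41, 10.63, 10.57 and 4.32 in WT and 4.39, 4.37, 4.42, 5.56, 11.12 and 8.19 in SIRT1tg, a range of 6.80. For both genes 4 WT arrays and 2 SIRT1tg arrays lay above 8, and SIRT1tg 4 lay a little above the other dim arrays.

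The fast troponins, which hold the thin filament in check until calcium binds, had the same bright and dim arrays. Tnni2, the inhibitory subunit, read 8.87, 9.68, 4.63, 10.23, 10.51 and 4.51 in WT and 4.33, 4.45, 4.45, 4.36, 10.96 and 7.45 in SIRT1tg. Tnnc2, the calcium-binding subunit, read 8.26, 9.04, 4.25, 9.63, 10.10 and 4.33 in WT and 4.45, 4.34, 4.29, 4.36, 10.56 and 6.65 in SIRT1tg. On the 6 dim arrays neither exceeded 4.63, and on the other 6 neither fell below 6.65. Tnnt3, which ties the complex to tropomyosin, ran from 4.16 on SIRT1tg 1 to 9.45 on SIRT1tg 5, a range of 5.29.

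Of the fast thick-filament genes, Mylpf, the regulatory light chain, read 6.77, 8.48, 4.39, 8.43, 9.17 and 4.32 in WT and 4.43, 4.51, 4.41, 4.79, 9.14 and 6.27 in SIRT1tg. Here WT 5 and SIRT1tg 5 differed by 0.035. Myh4, the heavy chain of the fastest fibres, ran from 4.21 to 7.75 with its highest value on SIRT1tg 5. Myh1, the heavy chain of fast type IIX fibres, was detected on 5 arrays and reached 7.01 there. A further Myh1 probe was detected on 0 arrays and peaked at 4.34. Mybpc2, the fast myosin-binding protein C, ran from 4.17 to 7.23. At the Z-disc, which anchors the thin filaments, Actn3, the fast alpha-actinin, ran from 4.18 to 7.44 and Myoz1, a partner of calcineurin, from 4.16 to 6.65. Further Actn3 probes were detected on 5 arrays and on 1 array, and reached 6.49 and 4.70. Casq1, the calcium store protein of fast fibres, was not detected on any array and stayed between 4.17 and 4.53.

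Myl1, the essential light chain of fast myosin, did not go down to background on any array. It read 11.85, 12.17, 10.96, 12.15, 12.41 and 11.60 in WT and 11.06, 11.76, 11.15, 11.57, 12.47 and 11.68 in SIRT1tg. The range of 1.51 was the smallest among the 24 tested members, though still above the median of 0.73 over all genes. Its highest array was SIRT1tg 5, followed by WT 5, as for Acta1, and its lowest was WT 3. Before normalisation its signal ran from 1972 to 5933, a ratio of 3.01. On WT 6, where Acta1 read 4.32 and was not detected, Myl1 read 11.60, and on WT 1, where Acta1 read 9.29, it read 11.85. A further Myl1 probe, detected on all 12 arrays, ran from 5.07 on SIRT1tg 1 to 7.19 on SIRT1tg 5. Which transcripts of the gene each probe reads was not examined here.

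The other members detected on all 12 arrays were Myl3, Mb, Actn2 and Eno3, and Tnnc1 was detected on 11. They were detected on arrays where Acta1 was at background, but their ranges, from 2.69 for Eno3 to 4.89 for Mb, were wider than that of Myl1. Mb and Tnnc1 came close to background, Mb at 4.62 on WT 6 and Tnnc1 at 4.55 on SIRT1tg 4, where it was not detected. A further Mb probe was detected on 7 arrays and ran from 4.19 on WT 6 to 7.50 on WT 5. Eno3, the muscle enolase of glycolysis, read 6.73, 7.40, 5.84, 7.96, 8.44 and 6.33 in WT and 6.06, 6.04, 6.19, 6.20, 8.53 and 6.60 in SIRT1tg. Actn2, the alpha-actinin of all fibres and the heart, read 5.95, 6.17, 5.09, 5.57, 7.82 and 5.0 in WT and 5.93, 5.28, 5.03, 5.12, 7.34 and 6.17 in SIRT1tg. Both stood clear of 4.26 on their lowest arrays.

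The slow and cardiac genes stood out on fewer arrays than the fast ones, above all on WT 5 and SIRT1tg 5. Of 10 such members, 8 were detected on at least 1 array, and the highest array was WT 5 for 6 of them and SIRT1tg 5 for Mb and Casq2. Tnnc1, the calcium-binding troponin of slow fibres and heart, read 4.53, 5.84, 4.66, 4.73, 9.27 and 5.45 in WT and 4.57, 4.91, 5.28, 4.55, 7.38 and 5.25 in SIRT1tg. WT 4, one of the brightest arrays for the fast genes, was among the dim arrays for Tnnc1. Tnnt1, the slow tropomyosin-binding troponin, read 5.23, 6.26, 4.19, 4.68, 9.53 and 4.28 in WT and 4.16, 4.29, 4.21, 4.52, 7.67 and 4.50 in SIRT1tg. Myl2, the slow and ventricular regulatory light chain, read 4.44, 6.40, 4.18, 4.27, 9.94 and 4.18 in WT and 4.15, 4.16, 4.22, 4.15, 7.93 and 4.32 in SIRT1tg. For Myl2 the detected arrays were 3 of 12, namely WT 2, WT 5 and SIRT1tg 5.

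Myl3, the slow and ventricular essential light chain, had a different order on the remaining arrays. It read 5.37, 6.67, 5.37, 7.16, 9.53 and 6.76 in WT and 5.67, 7.25, 5.84, 5.90, 8.05 and 6.17 in SIRT1tg, so that WT 6 and SIRT1tg 2, dim for the fast genes, lay above WT 1. Mb, the oxygen store myoglobin, read 6.78, 7.16, 5.28, 7.30, 9.24 and 4.62 in WT and 5.81, 5.12, 5.28, 5.97, 9.51 and 6.01 in SIRT1tg, and its 6 highest arrays were those of Acta1. Myoz2, a Z-disc protein of slow fibres and heart, reached 6.38 on WT 5 and 5.52 on SIRT1tg 5 and was detected on these 2 arrays only. Tnni1, the slow inhibitory troponin, was detected on WT 5 alone, at 5.23. Casq2, the cardiac calcium store protein, was detected on 1 array at 4.53. Myh7, the slow heavy chain, and Actc1, the cardiac actin, were not detected on any of the 12 arrays.

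The fast and the slow form of the same protein were set against each other array by array. For Actn3 and Mybpc2 the second form, Actn2 or Mybpc1, is grouped here with the genes of both fibre kinds. The difference between 2 probes carries a constant of the probes, so only its change from array to array is read, and only on arrays where both probes were detected. Tnnc2 and Tnnc1 were both detected on 6 arrays, and Tnnc2 minus Tnnc1 was 3.73 on WT 1, 3.20 on WT 2, 4.90 on WT 4 and 0.84 on WT 5, and 3.19 on SIRT1tg 5 and 1.40 on SIRT1tg 6. Tnnt3 minus Tnnt1 was 2.07, 1.26, 3.82 and -0.88 on the same 4 WT arrays and 1.78 on SIRT1tg 5, while Tnnt1 was not detected on SIRT1tg 6. For both troponin pairs the difference was highest on WT 4 and lowest on WT 5. Tnnc1 lay close to background on WT 1 and WT 4, at 4.53 and 4.73, as did Tnnt1 on WT 4, at 4.68. On SIRT1tg 6 Tnnc1 read 5.25, below its 5.45 on WT 6, an array dim for the fast genes. The differences on these arrays thus mostly follow the height of the fast gene. WT 4 and WT 5 differed little in the fast genes, by 0.48 for Tnnc2, but by 4.54 for Tnnc1. Myl2 was detected on 3 of these arrays only, where Mylpf minus Myl2 was 2.08 on WT 2, -0.77 on WT 5 and 1.21 on SIRT1tg 5, again lowest on WT 5. On WT 4, Mylpf read 8.43 and Myl2 was not detected. At the Z-disc, Actn3 minus Actn2 was 0.12, 0.88, 1.73 and -0.38 on WT 1, 2, 4 and 5, and -0.02 and -0.91 on SIRT1tg 5 and 6, so it was highest on WT 4 but lowest on SIRT1tg 6. Myoz1 minus Myoz2 was 0.07 on WT 5 and 1.13 on SIRT1tg 5, the arrays where Myoz2 was detected. For Mybpc2 minus Mybpc1 the values were 1.14, 1.43, 1.86 and 0.59 on WT 1, 2, 4 and 5, and 0.56 on SIRT1tg 5. This difference was highest on WT 4 but lowest on SIRT1tg 5, close to WT 5. Tnni1 was detected on 1 array, Casq1 on 0 and Myh7 on 0, so their pairs give no comparison of the 2 fibre kinds.

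**Figure D2:**
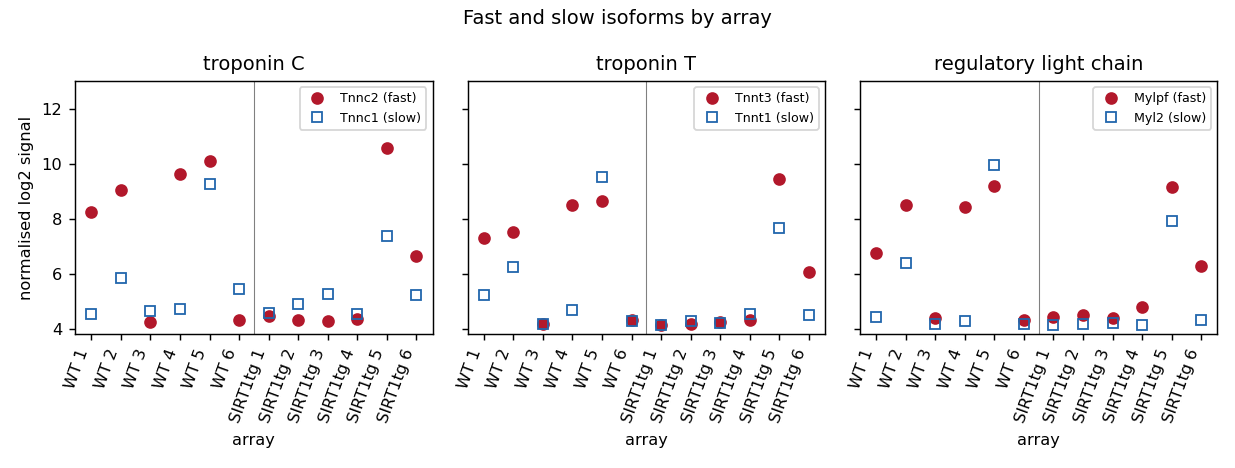
Fast and slow isoforms on each array. Each panel shows the normalised log2 signal of a fast gene (filled circles) and a slow gene (open squares) on the 6 WT and 6 SIRT1tg arrays; heights of different probes are not comparable. On WT 4 the fast genes read 9.63, 8.50 and 8.43 with the slow genes at 4.73, 4.68 and 4.27 (Myl2 not detected), while on WT 5 the slow genes read 9.27, 9.53 and 9.94.

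Among the filament and Z-disc genes used by both fibre kinds, Ttn, Tcap and Tpm2 had the 6 bright arrays of Acta1. Actn2, given above, did not, since WT 4 read 5.57 and SIRT1tg 1 read 5.93. Ttn, the giant spring protein titin, read 7.02, 7.47, 4.27, 7.44, 8.25 and 4.25 in WT and 4.39, 4.21, 4.24, 4.29, 8.86 and 5.08 in SIRT1tg. Tcap, the titin cap at the Z-disc, read 5.95, 6.87, 4.17, 6.17, 8.28 and 4.23 in WT and 4.20, 4.24, 4.20, 4.24, 8.26 and 4.86 in SIRT1tg. For Tcap the highest WT and the highest SIRT1tg array differed by 0.026. Tpm2, beta-tropomyosin, ran from 4.25 to 9.65, whereas a further Tpm2 probe was detected on all 12 arrays and ran from 5.28 to 7.19. The other of the 3 Tpm2 probes was detected on 1 array and ran from 4.19 to 4.66. The 3 Tpm2 probes thus disagreed on how far the gene varied and whether it reached background. Mybpc1, the slow-type myosin-binding protein C, and Ldb3, a PDZ and LIM protein of the Z-disc, were each detected on 5 arrays and reached 6.67 and 5.18 on SIRT1tg 5. Further Mybpc1 probes were detected on 5 and 2 arrays and reached 6.36 and 4.68. A further Ldb3 probe was detected on 2 arrays and reached 4.58.

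Of the genes that release calcium, Ryr1, the release channel of the sarcoplasmic reticulum, read 5.63, 6.24, 4.32, 6.52, 6.64 and 4.24 in WT and 4.24, 4.36, 4.28, 4.31, 7.69 and 4.87 in SIRT1tg. Its value on SIRT1tg 5 exceeded that on every WT array, as for 18 of the 24 tested members. Further Ryr1 probes were detected on 5, 7 and 0 arrays. Cacng1, a subunit of the voltage sensor, and Trdn, the triadin that links the release channel to the calcium store, were not detected on any array and peaked at 4.49 and 4.30.

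Of the enzymes, Ckm, the muscle creatine kinase that buffers ATP, read 6.45, 7.31, 4.15, 7.78, 8.59 and 4.22 in WT and 4.22, 4.19, 4.17, 4.23, 8.72 and 5.30 in SIRT1tg. Pgam2, the muscle phosphoglycerate mutase, ran from 4.17 to 7.69 and Ampd1, the muscle AMP deaminase, from 4.17 to 6.81. Both were highest on SIRT1tg 5. Pygm, the muscle glycogen phosphorylase, was detected on 3 arrays and reached 5.64 on WT 5.

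For most of these proteins, forms not confined to muscle had far smaller ranges. Actb, the cytoplasmic actin, had a range of 0.62 against 7.47 for Acta1, and Atp2a2, the calcium pump SERCA2 of slow fibres, heart and most other cells, 0.70 against 7.35 for Atp2a1. Ckb, the brain-type creatine kinase, had a range of 0.71 against 4.57 for Ckm. Pgam1 had 0.57 against 3.53 for Pgam2, and Ampd2 had 0.84 against 2.64 for Ampd1. The gap was small for 2 genes. Myl6, the non-muscle essential light chain, had 0.75 against 1.51 for Myl1. Of the glycogen phosphorylases, Pygb, the brain form, had 0.77 and Pygl, the liver form, 1.55 against 1.51 for Pygm, which was detected on 3 arrays. Over 19 tested counterparts of muscle genes the ranges were 0.57 to 1.55 with a median of 0.77, close to the 0.73 of all genes. These counterparts include forms that muscle also uses, such as Atp2a2, so they are not a purely non-muscle set. Eno1 had no probe under that symbol, and Ampd3 was not detected on any array.

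**Figure D3:**
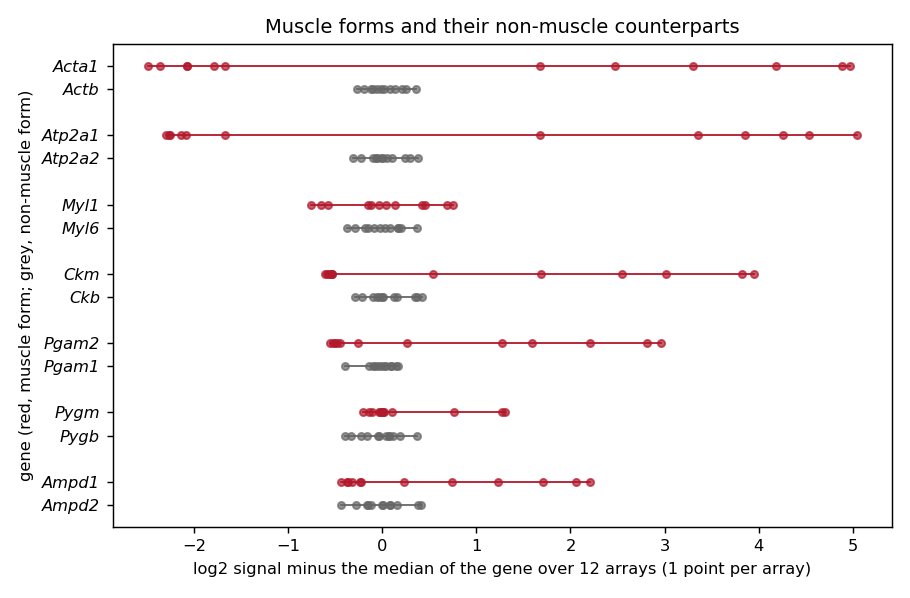
Muscle genes and their counterparts not confined to muscle. Each point is 1 of 12 arrays, plotted as the log2 signal minus the gene's own median. Muscle forms are in red and the counterparts in grey, of which Atp2a2 is also the pump of slow fibres and heart. Acta1 spans 7.47 and Actb 0.62, and Myl1 and Myl6 span 1.51 and 0.75.

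Markers of other muscle cells were read on the same arrays. Of 9 heart muscle genes with a probe, 7 were not detected on any array (Mybpc3, Myh6, Tnni3, Nppa, Nppb, Ryr2 and Myl7), and the 2 tested were Actn2, itself one of the 42 genes, and Myl4, whose range was 1.25. Of 10 smooth muscle and pericyte genes with a probe, 7 were tested, and their ranges were 0.65 to 1.37, the largest being that of Actg2, the enteric smooth muscle actin. The list's mean centred signal was 0.15, 0.06, -0.29 and -0.23 on WT 1, 2, 4 and 5. On SIRT1tg 5 and 6 it was 0.20 and -0.26. Of 10 muscle stem cell and myogenic factors with a probe, 4 were tested, with ranges of 0.54 to 0.91 (Mef2a, Mef2c, Myog and Mef2d), and Pax7, Pax3, Myf5 and Myod1 were not detected on any array. Macrophage markers were highest on WT 3 and WT 4, with mean centred signals of 1.03 and 0.97, against 0.07 on WT 5 and -0.37 on SIRT1tg 5. Brown adipocyte markers had mean centred signals of 0.01, 0.08, -0.13 and -0.14 on WT 1, 2, 4 and 5. On SIRT1tg 5 and 6 these were -0.09 and -0.03, and on the remaining arrays they lay from -0.04 to 0.18. The part of these cells in the muscle signals was not tested.

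A wider list of 77 further muscle genes was read on the same arrays. Of these, 64 had a probe, 16 were not detected on any array and 27 were tested. Their ranges had a median of 1.54, and 9 exceeded 2. The largest belonged to Cox6a2, a cytochrome oxidase subunit of muscle and heart (4.82), Rpl3l, a ribosomal protein of muscle (3.99), Eef1a2, a translation elongation factor of muscle and neurons (3.67), and Cryab, a small heat shock protein (2.96).

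Genes outside the 42 were ranked by the root mean square difference over the 12 arrays between their centred log2 signal and the median centred profile of the tested members. The nearest were Rpl3l, at 0.25, Eef1a2, at 0.29, and Cox6a2, at 0.41. Then came Tmod4 (0.76), Pdlim3 (0.79), Asb2 (0.80), Hrc (0.81), Pkia (0.86), Rtn2 (0.90), Ddit4l (0.97), Ankrd23 (0.98) and Trim72 (1.01). Of these 12 genes, 7 stood in the wider list of muscle genes, which held 27 of the 8035 genes tested. The other 5 stood in none of the lists, which does not tell whether muscle expresses them. On WT 5 and SIRT1tg 5, Rpl3l read 7.94 and 8.29, and on WT 6 and SIRT1tg 3 it read 4.49 and 4.30.

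No muscle gene differed between SIRT1tg and WT in the test across all genes. With limma and Benjamini-Hochberg adjustment over the 8035 genes, 0 of 24 members passed an adjusted p under 0.05, against 12 genes or 0.149% of all tested. At an unadjusted p under 0.05, 0 of 24 passed, against 15.2% of all genes. The arrays of the 2 groups overlapped for every one of the 24, while they did not overlap for 1.32% of all genes. The adjusted p of the members ran from 0.453 for Actn3 to 0.932 for Actn2.

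The differences all lay below 0 but within wide intervals. All 24 tested members had a mean lower in SIRT1tg, as did 53% of all genes, and over the 38 members with a probe 34 did. The median log2 difference was -0.94 over the 24 and -0.57 over the 38, against -0.01 over all genes. Since the members share the same few bright arrays, they do not count as separate observations of the direction. Without SIRT1tg 5 the median over the 24 was -1.53, and without WT 5 it was -0.64. With no background correction it was -0.34, and over the 6 genes with a probe detected on all 12 arrays it was -0.28.

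The mean of Acta1 was 8.53 ± 3.20 over the WT arrays and 6.60 ± 2.94 over the SIRT1tg arrays (± SD, 6 arrays a group), a difference of -1.92 ± 1.47 (SE, limma adjusted p = 0.604). Its 95% interval ran from -5.07 to 1.22, so that neither a large decrease nor a rise could be told from no change. Atp2a1 averaged 8.65 ± 3.27 and 6.49 ± 2.99, a difference of -2.15 ± 1.5 with an interval from -5.36 to 1.05 (limma adjusted p = 0.561). Tnnc1 averaged 5.75 ± 1.80 and 5.32 ± 1.05, a difference of -0.42 with an interval from -1.94 to 1.09. Without WT 5, its difference became 0.28, and those of Myl3, Mb and Actn2 became 0.22, 0.05 and 0.25. Myl1 averaged 11.85 ± 0.52 and 11.62 ± 0.51, a difference of -0.24 ± 0.25 with an interval from -0.78 to 0.30 (limma adjusted p = 0.720), and its further probe differed by 0.20 in the other direction. The half-width of the 95% interval had a median of 1.58 over the members.

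**Figure D4:**
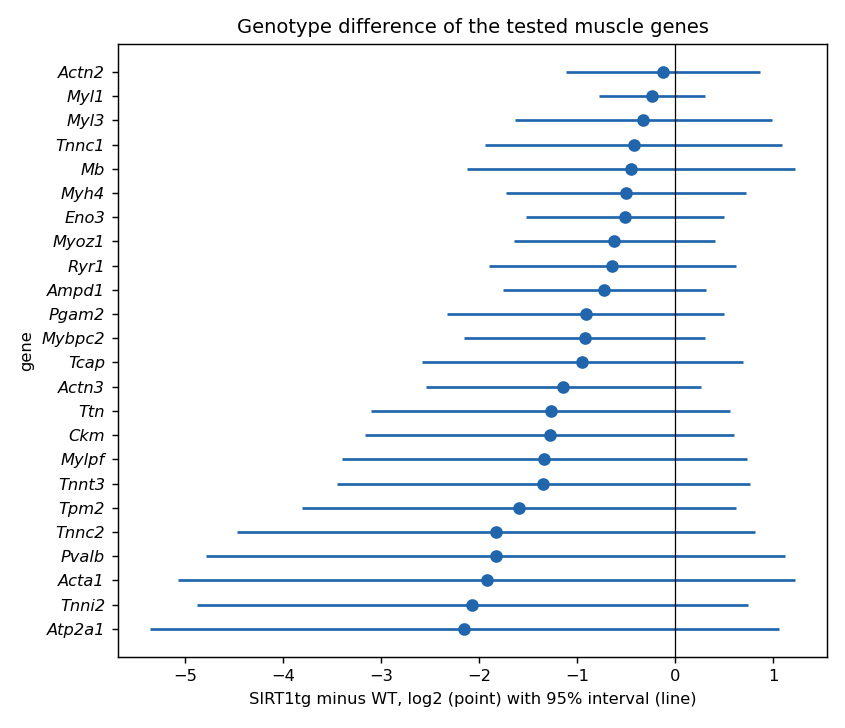
Difference between SIRT1tg and WT for the 24 tested muscle genes. Points are mean log2 differences and bars are 95% intervals of limma with 6 arrays per group. Every interval includes 0; that of Acta1 runs from -5.07 to 1.22 and that of Myl1 from -0.78 to 0.30.

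The number range of the columns was examined as a batch. Within the low range, with 3 arrays per group, the difference of Acta1 was -3.28, and within the high range it was -0.57. For Atp2a1 these values were -3.81 and -0.50, for Tnnc1 -0.09 and -0.76, and for Myl1 -0.34 and -0.14. No interaction of genotype and range passed the test among the members (lowest limma adjusted p = 0.775). With the range as a block, 0 of 24 members passed, against 84 genes or 1.05% of all tested. Between the high and the low range, 0 of 24 members passed an adjusted p under 0.05, against 5.03% of all genes.

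The processed table gave the same picture with columns that carry the labels' replicate numbers. On its linear scale Acta1 read 668, 1171, 12.9, 2115, 3347 and 2.16 in WT rep1 to rep6 and 22.8, 12.7, 5.57, 19.7, 3532 and 376 in SIRT1tg rep1 to rep6. Myl1 read 3664, 4601, 2057, 4524, 5467 and 3130 in WT and 2209, 3469, 2341, 3066, 5662 and 3299 in SIRT1tg. Tnnc1 read 7.74, 48.0, 10.9, 12.5, 658 and 32.8 in WT and 8.84, 16.8, 27.2, 8.22, 166 and 26.1 in SIRT1tg. Among the 24 tested members the highest sample was SIRT1tg rep5 for 18 and WT rep5 for 6. Their median range there, on the log2 scale after adding 16 to values set to 0 where below 0, was 4.62 over the same probes. Between the tables the range of no member with a probe differed by more than 0.37.

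**Figure D5:**
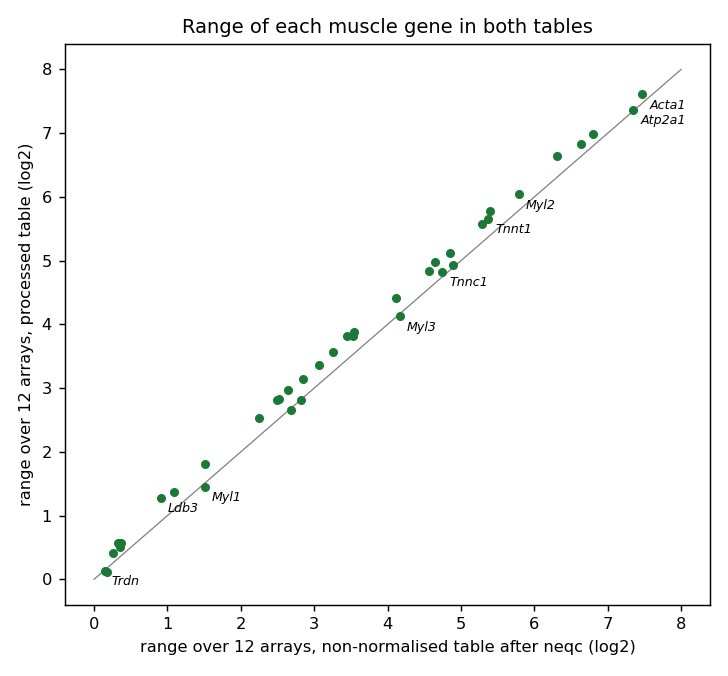
Range over the 12 samples in both tables. Each point is 1 of 38 muscle genes, with the range of the normalised log2 signal on the x axis and that of log2 of the processed value plus 16 on the y axis. Acta1 has the largest range in both, 7.47 and 7.61, and Myl1 lies at 1.51 and 1.45.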

How the data were processed

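Total RNA of 12 brown adipose tissue samples was labelled with biotin for Illumina arrays, per the labels' protocols. The authors deposited non-normalised intensity values, mean bead signals per probe, each with a detection p-value, per the file headers, and a table of intensity values that they had processed. The latter are linear and include values below 0, and no source used here gives the method. GenomeStudio is named in the submitters' processing notes.

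For the main analysis, neqc (limma 3.58.1, R 4.3.3, offset 16) corrected the background by means of the detection p and quantile-normalised the signals. Probes with 1 gene symbol (23978 of 25697) were used, and a gene was tested if its probe was detected (p under 0.05) on 6 or more of the 12 arrays. The 2 groups of 6 were fitted with lmFit and eBayes (limma), and p-values were adjusted by Benjamini-Hochberg over all 8035 genes. The code was tested on simulated data. The alternatives were other background corrections, scalings and filters, the processed values, probe means, array weights, the number range, the replicate number and leaving out each array. The number of arrays limits the precision, and the background and offset compress the differences of dim genes.

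The 42 genes, the other lists and the tests were chosen with earlier results of these data known. The rule for named genes took all 42 members, named isoform pairs, up to 4 measured genes of the largest range per other list and the 12 nearest other genes. Every list, those of endothelial, fibroblast, nerve and embryonic muscle genes included, had 0 members past the threshold.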

Additional observations from a re-analysis of the deposited data

Results flagged for a closer look

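For the 33 muscle genes detected on at least 1 array, both groups of 6 arrays were examined, 66 groups in all. An array stood apart if its gap to the next array, as a share of the group's whole range, exceeded Dixon's 95% critical value. Only groups with a detected signal could be flagged. In 26 of the 66 groups the highest array stood apart, which was SIRT1tg 5 in 22 and WT 5 in 4. Chance would flag about 1 in 20 groups of normally distributed values. Many of these groups hold several values at background, so that rate does not apply to them. These genes are also read on the same arrays, so the 26 are not separate events.

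On SIRT1tg 5 the fast genes that stood apart from the other SIRT1tg arrays were Tnnt3 at 9.45 (next 6.08), Myh1 at 7.01 (next 4.42), Myh4 at 7.75 (next 4.73), Actn3 at 7.32 (next 5.25), Myoz1 at 6.65 (next 4.62) and Mybpc2 at 7.23 (next 4.70). The slow or cardiac genes were Tnnc1 at 7.38 (next 5.28), Tnnt1 at 7.67 (next 4.52), Myl2 at 7.93 (next 4.32), Myoz2 at 5.52 (next 4.47) and Mb at 9.51 (next 6.01). Of the filament, Z-disc and calcium release genes, Ttn stood at 8.86 (next 5.08), Tcap at 8.26 (next 4.86), Mybpc1 at 6.67 (next 4.35), Ldb3 at 5.18 (next 4.56), Tpm2 at 9.65 (next 5.55) and Ryr1 at 7.69 (next 4.87). Of the enzymes, Ckm stood at 8.72 (next 5.30), Pygm at 5.61 (next 4.33), Eno3 at 8.53 (next 6.60), Pgam2 at 7.69 (next 4.99) and Ampd1 at 6.81 (next 4.84).

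On WT 5 the slow or cardiac genes that stood apart from the other WT arrays were Tnni1 at 5.23 (next 4.24), Tnnc1 at 9.27 (next 5.84) and Myoz2 at 6.38 (next 4.49). Mybpc1, grouped here with the genes of both fibre kinds, also stood apart there, at 6.31 (next 4.98). Acta1, Atp2a1, Tnni2, Tnnc2 and Pvalb had no array that stood apart in either group.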

How the results depend on the processing

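Under every alternative run, 0 muscle genes passed the threshold, with a lowest adjusted p between 0.193 (limma without SIRT1tg 5) and 0.672 (genes detected on all 12 arrays, 6 of them muscle genes). Of 558 differences of single members under an alternative, 545 kept their direction and 13 turned, 0 of them past the threshold. Tpm2 became 0.05 with the processed values, with detection on all 12 arrays and with the replicate block, where its further probe stood for it. In the low number range Myl3 became 0.45, and in the high range Myh4 became 0.00, Mb 0.10 and Actn2 0.08. With 1 array left out, Tnnc1 ran from -0.83 (without SIRT1tg 5) to 0.28, Myl3 from -0.64 (without SIRT1tg 5) to 0.22, Mb from -1.10 (without SIRT1tg 5) to 0.05 and Actn2 from -0.43 (without SIRT1tg 5) to 0.25, with each highest value without WT 5, and Actn2 became 0.03 without SIRT1tg 3 and 0.01 without SIRT1tg 4. Their median difference ran from -1.53 to -0.64 when 1 array was left out. It was -0.34 with no background correction, -0.52 with normexp at an offset of 50, -0.57 with no filter (38 members), -0.28 with detection on all 12 arrays, and -1.35 and -0.56 in the low and the high number range. The median range fell to 2.45 over the members, 2.87 over the fast and 2.71 over the slow genes with no background correction, and to 2.41 and 1.88 over the members and the slow genes in the low number range, which holds neither WT 5 nor SIRT1tg 5. Detection on all 12 arrays left 6 members with a median range of 2.76, Myl1 being the only fast gene, at 1.51. Leaving out 1 array gave 3.81 to 4.37 over the members, 4.67 to 5.07 over the fast and 2.85 (without WT 5) to 4.74 over the slow genes. The fast medians rest on 12 tested genes and the slow ones on only 3 (Tnnc1, Myl3 and Mb). With no filter the medians were 4.20 over the fast and 3.20 over the slow genes. Over all genes, the count past the threshold was 12 and became 43 with median scaling, 26 with detection on all 12 arrays, 163 with array weights, 84 with the number range as a block, 1 and 4 in the low and the high range, and 3 (without SIRT1tg 2, among others) to 151 (without WT 1) with 1 array left out; the cause was not tested. With the replicate block on the processed values, 5 genes and 0 muscle genes passed, with a median difference of -1.03 over the members. Deviations of same-numbered samples correlated at -0.13 to 0.49 and 3 of 6 samples matched their own number best, so the numbers were not taken to pair the samples. Signals near background limit Myh1, Tnnt1, Myl2 and the other members detected on few arrays.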

Other observations

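Elovl3, a fatty acid elongase of brown fat, had the largest range among the brown adipocyte markers, 2.83, and its order of arrays was unlike that of the muscle genes. It read 8.37 on WT 3 and 8.46 on SIRT1tg 3, which were dim for most muscle genes, 6.17 on WT 5 and 6.30 on SIRT1tg 5. The red cell markers Alas2, Hba-a1 and Slc4a1 were highest on SIRT1tg 6 and SIRT1tg 4, with mean centred signals of 0.97 and 0.73, against -0.13 on WT 5 and 0.21 on SIRT1tg 5.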
